A study of Mus musculus with 8 samples.

Results

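Hippocampal neural stem and progenitor cells carrying the Kmt2d+/βgeo genotype were compared between day 8 and day 2 of differentiation in culture. Every cell that the deposited cell table assigned to either library was used, which gave 2965 cells at day 8 and 4900 at day 2, or 7865 of the 30408 cells in the series. The cells came from dentate gyrus dissected from embryos of C57BL/6J females mated to Kmt2d+/βgeo males. The labels place the dissection at embryonic day 18, whereas the study's methods name another embryonic day. Their allele is given as Mll2Gt(RRt024)Byg, a gene trap in Kmt2d carried on 1 chromosome, and both libraries shared it. Each culture had been kept undifferentiated with EGF and FGF2, and day 2 and day 8 count from the removal of both factors. RNA was read by droplet single-cell sequencing of 3′ tags, and unique molecular identifiers (UMIs) let each captured molecule be counted once. The wild-type libraries, labelled C57BL/6J, held 4098 cells at day 2 and 3212 at day 8, and came from littermates per the labels. They are set beside the Kmt2d+/βgeo values. The study mentions replicate cultures, but 1 library per genotype and day was analysed here, and no source used here gives how many embryos or cultures entered a library. There were therefore no replicate libraries, no test was made between days, and cells were not treated as replicates. Intervals given below cover counting error only.

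Kmt2d encodes a histone H3 lysine 4 methyltransferase that acts at enhancers, and loss of 1 working copy causes Kabuki syndrome in people. Progenitors of the dentate gyrus divide while EGF and FGF2 are present. Without these factors they leave the cell cycle and can go on to a quiescent stem cell state, to astrocytes or to neurons. Astrocytes and quiescent neural stem cells share many genes, among them those for lipid synthesis, lipid transport and gap junctions.

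Depth differed between the days. The median cell held 16273 total UMIs at day 2 and 7926 at day 8, against 16692 and 14243 in wild type. On the 9140 genes of the deposited matrix the medians were 7566 and 3972 UMIs, over 2820 and 1917 detected genes. The matrix genes held 46.4% of all UMIs at day 2 and 50.1% at day 8. The day 2 and day 8 libraries shared 2 cell barcodes. Because the day 8 library was the shallower, each ratio was also computed after every cell was thinned to 3000 UMIs, which kept all 4900 day 2 cells and 2200 of the day 8 cells. Thinning thus left out 765 day 8 cells, so a ratio after thinning also reflects which cells were kept. Within the day 8 library, 99 of 7617 genes were at least 2-fold higher in cells under 3000 UMIs than in deeper cells and 13 were at least 2-fold lower. A level here is a mean normalised count over the cells of 1 library, scaled so that the matrix genes of every cell sum to 8707.1. A change is the log2 ratio of the day 8 level to the day 2 level, and a gene rose or fell where that ratio was at least 1 in size, which is 2-fold.

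Kmt2d, the gene with the altered allele, was read first. On GRCm38 it spans 98831669 to 98871204 of chromosome 15, and it had a level of 0.171 at day 2 and 0.290 at day 8, from 782 (95% exact Poisson interval 728 to 839) and 344 (309 to 382) summed UMIs. The log2 ratio of the levels was 0.77, or 0.59 after thinning, and stayed under the 2-fold limit, against 0.29 in wild type. The summed UMIs gave a lower log2 ratio of 0.55, with a 95% counting interval of 0.37 to 0.74. In the day 8 cells under 3000 UMIs on matrix genes the level was 0.472, a log2 ratio of 1.47 against day 2, and in the deeper cells 0.229, a log2 ratio of 0.42. No source used here places the trap relative to the 3′ tag, so this level does not check the genotype label. Luzp2, a leucine zipper gene of the nervous system, was included because earlier results of these data had shown it higher in Kmt2d+/βgeo libraries, so its levels are a description and no check of the labels. They were 1.48 at day 2 and 2.62 at day 8 in the Kmt2d+/βgeo libraries and 0.0305 and 0.0575 in wild type. The other Kmt2d+/βgeo libraries had 0.287 at day 0 and 0.0502 at day 4, the latter close to the wild-type day 4 level of 0.0422. Beyond these levels day 4 enters no comparison here.

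Of the 9140 genes, 7733 had a level of at least 0.1 in either library. Between day 2 and day 8, 875 of them rose (11.3%) and 785 fell (10.2%), and the median log2 ratio over all 7733 was 0.05 with an SD across genes of 0.88. After thinning to 3000 UMIs, 771 of the risers and 725 of the fallers were still past 2-fold. A change of at least 4-fold was seen upwards in 152 genes and downwards in 110. The split of higher to lower calls depended on the scale. Rises were 52.7% of the calls on levels and 28.9% when mean log2 values were subtracted, which called 50 rises and 123 falls. Those log2 values carry a pseudocount of 1, so a gene with levels under 1 on both days cannot be called by their difference. In wild type, 653 of 7641 genes rose (8.55%) and 469 fell (6.14%). Over the 7501 genes compared in both genotypes, 445 rose in both, which was 54.1% of the Kmt2d+/βgeo risers and 71.7% of the wild-type risers. Likewise 321 fell in both, 42.2% of the Kmt2d+/βgeo fallers and 70.7% of those in wild type. The difference between genotypes was not tested. The counts for each gene list that follows stand beside these shares of all genes, 11.3% rising and 10.2% falling in the Kmt2d+/βgeo libraries and 8.55% and 6.14% in wild type. Of the 875 genes that rose, 278 were under 0.1 at day 2 and entered through day 8 alone, and of the 785 that fell 209 were under 0.1 at day 8.

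**Figure D1:**
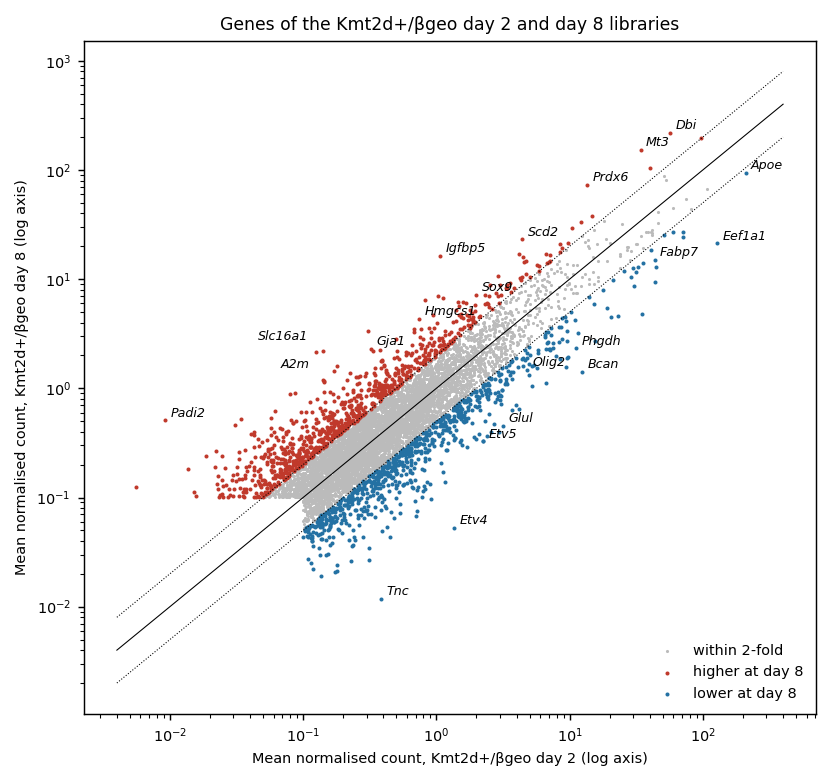
Mean normalised count of each of the 7733 genes compared at day 2 (x axis) and day 8 (y axis) in the Kmt2d+/βgeo libraries, both on log axes. The solid line marks equal levels and the dotted lines a 2-fold difference. The 875 genes that rose lie above the upper dotted line and the 785 that fell below the lower one, with Padi2 far above it and Tnc and Etv4 far below.

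The steepest rise was in Padi2, a peptidylarginine deiminase, which went from a level of 0.00915 to 0.509, a log2 ratio of 5.80 (4.84 in wild type), on 49 and 681 UMIs. A2m, a secreted protease inhibitor, rose from 0.126 to 2.14, with a log2 ratio of 4.09. Both were higher at day 8, and Padi2 rested on fewer than 100 UMIs at day 2. Slc16a1, a lactate and pyruvate transporter, rose from 0.140 to 2.18 (log2 ratio 3.96). Osmr, the oncostatin M receptor, rose from 0.0343 to 0.527 (log2 ratio 3.94). Igfbp5, an insulin-like growth factor binding protein, rose from 1.07 to 16.4 (log2 ratio 3.94). Its summed UMIs gave a log2 ratio of 3.84 with a 95% counting interval of 3.79 to 3.88, and 4.67 (4.62 to 4.73) in wild type. In thinned cells the median Igfbp5 count was 0 at day 2 and 4 at day 8, with an upper quartile of 8 at day 8. Also among the 10 were Riiad1 (3.92), Ggta1 (3.73), Efr3b (3.67) and Psd2 (3.60), whose log2 ratios were also above 3 in wild type. All of these last, and Padi2 and Osmr before them, were under 0.1 at day 2 in both genotypes and entered through day 8 alone. In the Kmt2d+/βgeo library the day 2 levels of Riiad1, Ggta1, Efr3b and Psd2 ran from 0.0137 to 0.0306, on 144, 64, 89 and 107 UMIs.

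By the ratio of levels the steepest fall was in Tnc, the matrix glycoprotein tenascin C of radial glia and stem cell niches. On days 0, 2 and 8 its level was 2.25, 0.384 and 0.0117, with a log2 ratio of -5.03 for day 8 over day 2, on 1879 and 24 UMIs. Etv4, an ETS factor induced by FGF signalling, went from 1.37 to 0.0529, a log2 ratio of -4.69 against -5.51 in wild type. Both genes were far below their day 2 level. Bcan, the proteoglycan brevican, fell from 12.5 to 1.42 (log2 ratio -3.13, and -3.07 in wild type). In thinned cells its median count was 4 at day 2 and 0 at day 8, so the fall was present in the middle of the population. Also among the 10 steepest falls were Traf3ip2, an interleukin-17 receptor adaptor (-3.55), Kcnmb4, a potassium channel subunit (-3.39), Adamts10, a matrix protease (-3.35), and Hpcal1, a calcium sensor (-3.25). Cav1, the caveolar coat protein (-3.25), Col28a1, a collagen (-3.18), and Grb10, an adaptor of insulin signalling (-3.12), completed them, and all of these log2 ratios were below -2 in wild type as well. Tnc, Etv4 and each gene named from Traf3ip2 to Grb10 were under 0.1 at day 8 and entered through day 2 alone. From Traf3ip2 to Grb10 the day 8 UMIs ran from 34 for Grb10 to 124 for Cav1.

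Genes past 2-fold both over all cells and after thinning were also ranked by the difference of their means. Without that limit Tmsb4x, a small actin-binding protein (96.4 and 196), would have entered the 5 largest rises, and Apoe (210 and 94.7) and Cst3, the protease inhibitor cystatin C (108 and 66.7), the 5 largest falls. Dbi, the acyl-CoA and diazepam binding protein, rose from 56.95 to 218, and its median count in thinned cells went from 18 to 82. Mt3, a metallothionein of the brain, rose from 34.1 to 153, and its thinned median from 11 to 54. Prdx6, a peroxiredoxin, rose from 13.5 to 73.3, with a thinned median of 4 at day 2 and 25 at day 8. For these 3 genes the lower quartile of thinned day 8 cells was above the upper quartile of day 2 cells, at 62 against 26 for Dbi, 38 against 17 for Mt3 and 18 against 6 for Prdx6. Rpl41, a ribosomal protein, and Cox8a, a subunit of cytochrome c oxidase, completed the 5 largest rises in this ranking, from 40.4 to 104 and from 14.7 to 37.5. The largest falls in this ranking were in Eef1a1, the factor that brings tRNA to the ribosome, from 128 to 21.2, and in Tpt1, a growth-related protein, from 71.1 to 24.3. Ptn, the growth factor pleiotrophin, fell from 71.0 to 26.9, Ubb, a ubiquitin gene, from 43.5 to 9.35 and Rpl23 from 59.6 to 26.7. Eef1a1 had a thinned median of 44 at day 2 and 6 at day 8. In wild type Ubb had a log2 ratio of -0.47, against -2.22 in the Kmt2d+/βgeo libraries. Rpl41 had 0.04 in wild type against 1.36, and Cox8a 0.35 against 1.35.

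**Figure D2:**
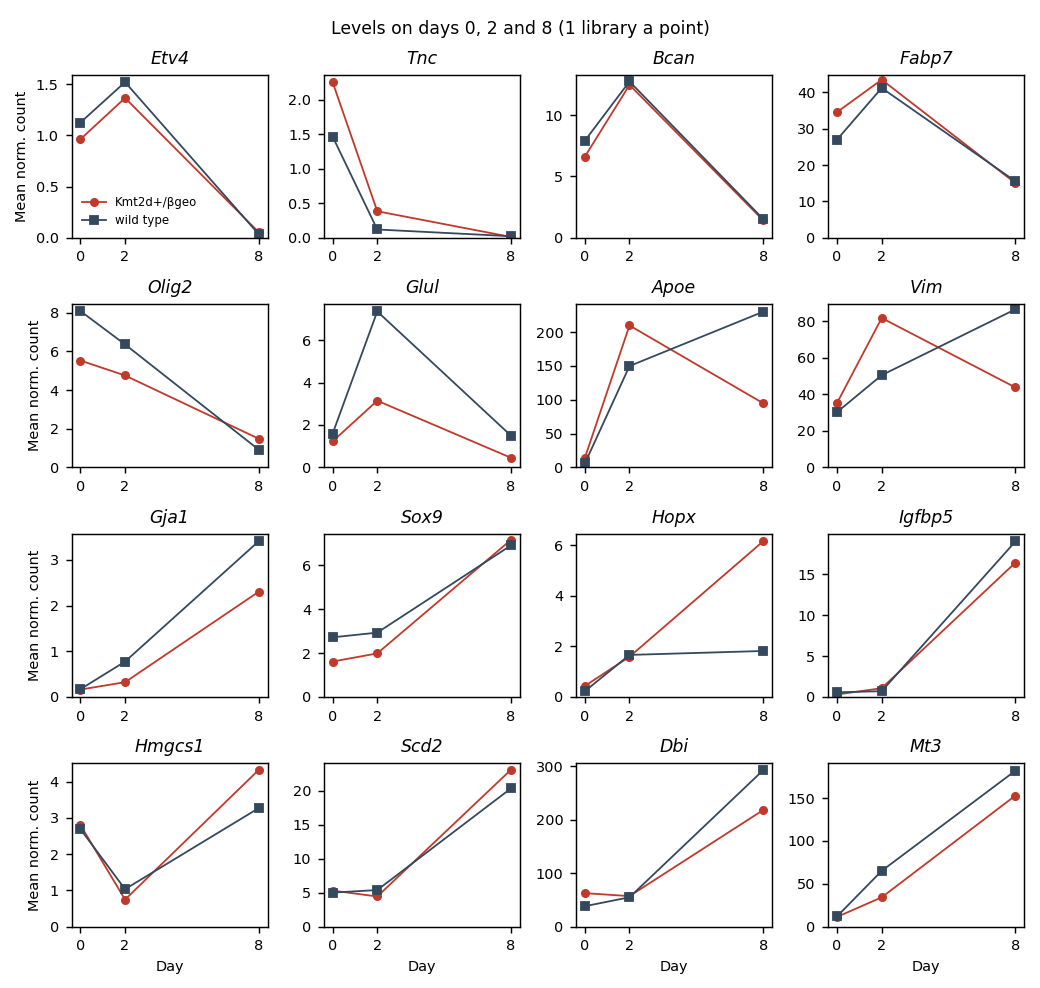
Mean normalised counts of 16 genes (y axes, each from 0) on days 0, 2 and 8 (x axes) in the Kmt2d+/βgeo (circles) and wild-type (squares) libraries, with 1 library a point and no error bar. Etv4, Bcan and Fabp7 fell and Igfbp5, Scd2 and Dbi rose between day 2 and day 8 in both genotypes, whereas Apoe went down in the Kmt2d+/βgeo libraries (210 to 94.7) and up in wild type (150 to 230).

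Targets of FGF and EGF signalling were read at day 2 and day 8, both after the removal of these factors. Of 14 compared genes of a list of FGF and EGF feedback regulators, receptors and targets, 0 rose and 4 fell (10.2% of all genes fell), with a median log2 ratio of -0.64. The 4 were the ETS factors Etv4, Etv5 and Etv1 and the FGF feedback inhibitor Il17rd. Etv4 and Il17rd were under 0.1 at day 8 and entered through day 2 alone. Etv5 fell from 2.24 to 0.326 (log2 ratio -2.78), Etv1 from 1.49 to 0.732 (-1.02) and Il17rd from 0.138 to 0.0552 (-1.33). On day 0, with both factors still present, Etv4 was at 0.963 and Etv5 at 2.12, neither of them above its day 2 level. In wild type Etv4 was at 1.13 and 1.52 on days 0 and 2, and Etv5 at 3.60 and 2.35. The whole list was higher on day 0, with sums of 21.9, 16.2 and 9.69 on days 0, 2 and 8. In wild type the sums were 21.9, 17.7 and 7.48. The receptors stayed within 2-fold, at 2.25 and 1.46 for Egfr and 1.88 and 1.19 for Fgfr1. In wild type 8 of 13 fell (6.14% of all genes), with a median of -1.19. Spry1, Spry4, Dusp6 and 5 others of the list had 0 rows in the matrix.

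Markers of neural progenitors and radial glia moved in both directions. Of 8 compared, 1 rose and 2 fell, with a median log2 ratio of -0.70, and the summed level of the list was 151 at day 2 and 76.8 at day 8. Fabp7, the brain fatty acid binding protein of radial glia, fell from 43.5 to 15.0 (log2 ratio -1.53), and Tnc was the other gene to fall. Msi1, an RNA-binding protein of neural stem cells, rose from 0.418 to 1.42 (1.76). Vim, an intermediate filament gene, was at 81.8 and 43.8 in the Kmt2d+/βgeo libraries (log2 ratio -0.90) and at 50.5 and 86.6 in wild type (0.78), both within 2-fold. Pax6, a transcription factor of progenitors, was at 0.354 and 0.366.

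The astrocyte list moved in both directions. Of 12 compared, 2 rose and 3 fell, with a median log2 ratio of -0.13. Gja1, the gap junction protein connexin 43, rose from 0.323 to 2.31 (log2 ratio 2.83). Sox9, a transcription factor of stem cells and astrocytes, rose from 1.98 to 7.16 (1.85), and its median thinned count went from 0 to 2. With the day 8 cells under 3000 UMIs left out its log2 ratio was 1.60. Glul, the enzyme that makes glutamine from glutamate, fell from 3.14 to 0.451 (-2.80), and Aldh1l1, a folate enzyme widely used as an astrocyte marker, from 1.25 to 0.516 (-1.27). In wild type Gja1, Sox9, Glul and Aldh1l1 had the same directions, at 2.14, 1.24, -2.30 and -1.01. Apoe was the third to fall. The other 7 were within 2-fold, with S100b at 0.867 and 0.917 and the glutamate transporter gene Slc1a2 at 2.19 and 2.08. Gfap, Aqp4, Aldoc and 5 others of the list had 0 rows in the matrix, so the astrocyte label could not be read from its most used markers.

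Apoe, the main lipid-carrying lipoprotein of astrocytes, was read with depth in view. On days 0, 2 and 8 its level was 14.1, 210 and 94.7, and the log2 ratio of day 8 over day 2 was -1.15. Thinning to 3000 UMIs, which also left out the shallower day 8 cells, gave a log2 ratio of -0.94, under 2-fold. With the day 8 cells under 3000 UMIs left out and no thinning it was -0.94 as well, and with day 2 cells thinned to the day 8 depths and every cell kept it was -1.14. The median Apoe count in thinned cells was 61 at day 2 and 34 at day 8, with quartiles of 32 and 102 at day 2 and 21 and 51 at day 8. Within the day 8 library the level was 52.5 in the 752 cells under 3000 UMIs on matrix genes and 109 in the 2213 deeper cells, which gave log2 ratios of -2.0 and -0.94 against day 2. The shallow day 8 cells were thus lower in Apoe than the deeper ones. In wild type Apoe went from 150 to 230, a log2 ratio of 0.62.

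**Figure D3:**
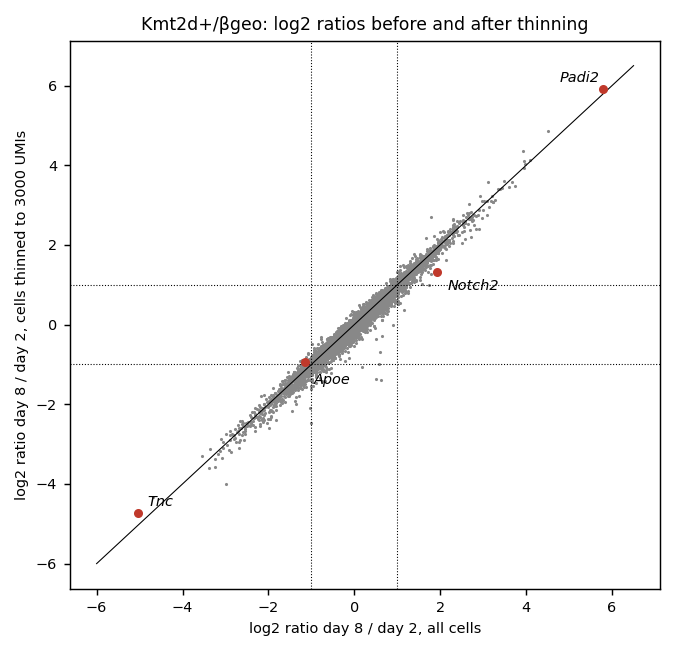
The log2 ratio of each gene over all cells (x axis) against the log2 ratio in cells of at least 3000 UMIs thinned to that number (y axis), Kmt2d+/βgeo day 8 over day 2. The solid line marks equal ratios and the dotted lines 2-fold, and Apoe (-1.15 and -0.94) and Notch2 (1.93 and 1.33) are marked with Padi2 and Tnc.

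Of other cell types the matrix held few markers. Of 6 neuronal genes compared, 2 rose and 0 fell, with 1 fall, of Gad1, after thinning. Gap43, a growth cone protein, went from 0.113 to 0.747 (log2 ratio 2.72), and Rbfox3, the neuronal splicing factor NeuN, from 0.0356 to 0.113 (1.67). Rbfox3 entered through its day 8 level alone, which was 0.0963 in day 8 cells of at least 3000 UMIs, and in wild type it was at 0.0501 and 0.0472, too low to be compared. The summed level of the neuronal list was 10.0 at day 2 and 12.5 at day 8, and Dcx, Tubb3, Stmn2, Snap25 and Syt1 had 0 rows, so a neuronal identity could not be read. All 3 oligodendrocyte lineage genes compared fell, with a summed level of 7.39 at day 2 and 2.29 at day 8. Olig2, a factor of this lineage and of dividing progenitors, fell from 4.76 to 1.48 (log2 ratio -1.69), and Cnp, a myelin enzyme, from 2.13 to 0.637 (-1.74). Microglial markers had 1 of 12 genes in the matrix, so that cell type could not be read. Dynlrb2, a dynein light chain of cilia and the single ependymal list gene, rose from 0.0924 to 0.254 and entered through day 8 alone. Vascular, meningeal and fibroblast markers had 0 of 12 genes in the matrix.

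Genes of quiescence and of the BMP response included 3 that rose and 0 that fell among 9 compared, with a median log2 ratio of 0.05. Hopx, a homeodomain protein of quiescent hippocampal stem cells, rose from 1.59 to 6.16 (log2 ratio 1.95), while in wild type it was at 1.66 and 1.82 (0.13). The median thinned count of Hopx in the Kmt2d+/βgeo cells was 0 at day 2 and 2 at day 8. Tsc22d4, a leucine zipper protein of the TSC22 family, rose from 1.46 to 6.17 (2.08), and Cdkn1a, the cyclin-dependent kinase inhibitor p21, from 1.05 to 2.80 (1.41). The remaining 6, Id3, Cdkn1b and both BMP receptor genes among them, were within 2-fold.

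Summed levels of the cell cycle lists were already lower at day 2 than at day 0. Top2a, the topoisomerase of dividing cells, had levels of 3.50, 0.108 and 0.0550 on days 0, 2 and 8, and the log2 ratio of day 8 over day 2 was -0.98, which became -0.49 after thinning. In wild type Top2a had a log2 ratio of 0.33 on levels and -0.17 on summed UMIs. All 5 mitotic genes compared stayed within 2-fold, with Bub3 at 1.01 and 0.561 and Smc4 at 0.595 and 0.549. Of 29 mitotic genes listed 21 had 0 rows in the matrix, Mki67, Cdk1 and Ccnb1 among them. The 8 in the matrix summed to 11.6, 2.23 and 1.685 on days 0, 2 and 8. Of 13 DNA replication genes compared 2 rose and 3 fell, and all 3 fallers were under 0.1 at day 8 and entered through day 2 alone. A further 13 of the list, Pcna and Mcm2 among them, had 0 rows in the matrix. Rpa1, which binds single-stranded DNA, rose from 0.237 to 0.589 and Tipin, a protein of the replication fork, from 0.379 to 0.768. The log2 ratio of Tipin was 1.02 and fell under 2-fold with thinning to 2000 UMIs (0.99), with day 2 thinned to the day 8 depths (0.95) and when centred on the median ratio (0.97). Rfc3, a clamp loader subunit, fell from 0.302 to 0.0773 and Tyms, thymidylate synthase, from 0.117 to 0.0442, the latter on 63 UMIs at day 8. The third to fall, Mcm6 of the replicative helicase, had a log2 ratio of -1.21 that became -0.96 after thinning. On days 0, 2 and 8 the replication list summed to 15.3, 4.44 and 4.33, and to 12.2, 4.15 and 5.31 in wild type. The list's median log2 ratio was -0.44, whereas in wild type 2 of 15 rose and 0 fell, with a median of 0.62.

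Cholesterol synthesis and uptake had the highest median of the 23 lists with at least 3 genes compared. Of 19 genes compared 13 rose and 0 fell, with a median log2 ratio of 1.30 (1.35 after thinning), beside 11.3% of all genes that rose. Of the 13 risers 4 were under 0.1 at day 2 and entered through day 8 alone. In wild type 7 of 18 rose, with a median of 0.71. Idi1, which makes the isoprenoid unit for sterols, rose from 0.0811 to 0.514 (log2 ratio 2.66, and 1.08 in wild type). Hmgcs1, an early enzyme of the mevalonate pathway, rose from 0.744 to 4.33 (2.54, and 1.67 in wild type), and Stard4, a sterol carrier, from 0.0246 to 0.144 (2.55). The regulators rose too, with Insig1, a sterol-sensing brake on the pathway, at 0.266 and 1.30 (2.29) and Srebf2, its master transcription factor, at 0.221 and 0.691 (1.65). The 6 within 2-fold included Cyp51, Sqle, Acat2 and Tm7sf2, with log2 ratios of 0.90, 0.31, -0.10 and -0.94. The rises followed a low point at day 2, since the levels of the list summed to 14.4, 4.80 and 13.6 on days 0, 2 and 8. In wild type these sums were 13.7, 5.64 and 11.4.

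Sterol-responsive promoters are known for short elements bound by SREBP factors. The motif TCACNCCAC, one form of that element, was searched on both strands of RefSeq promoter windows on GRCm38.p6, each with 250 bases before and 50 after a gene start. It was in 1.24% of 32851 windows, and 1.44% of 27025 genes had it in at least 1 window. Of the 19 cholesterol genes 14 had a window, and 1 of these, Hmgcs1, held it. The Hmgcs1 window, chr13:119690101-119690400 on the plus strand, is shown because it is the one member with a match, whose letters are in capitals.
Hmgcs1: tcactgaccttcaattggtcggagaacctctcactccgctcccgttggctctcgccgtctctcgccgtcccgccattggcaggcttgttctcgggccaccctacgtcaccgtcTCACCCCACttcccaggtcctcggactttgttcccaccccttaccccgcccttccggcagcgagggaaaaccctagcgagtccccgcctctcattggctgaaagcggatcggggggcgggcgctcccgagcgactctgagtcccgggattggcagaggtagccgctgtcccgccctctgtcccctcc
A match of letters is a description of the window only.

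Fatty acid synthesis and oxidation genes had medians on opposite sides of 0. Of 10 synthesis genes 3 rose and 0 fell, with a median log2 ratio of 0.79. Scd2, the stearoyl-CoA desaturase of brain, rose from 4.42 to 23.1 (2.38), and its median thinned count went from 1 to 7. Me1, malic enzyme, rose from 0.822 to 1.77 (1.11), and Srebf1, which controls lipid synthesis genes, had a log2 ratio of 1.01, which was 0.96 when centred on the median ratio. Of 16 oxidation genes 1 rose and 6 fell, with a median of -0.77, against 1 and 2 and a median of -0.24 in wild type. Acsbg1, an acyl-CoA synthetase, fell from 2.40 to 0.366 (-2.71), Acaa2, a mitochondrial thiolase, from 2.55 to 0.395 (-2.69) and Acadl, an acyl-CoA dehydrogenase, from 6.70 to 1.12 (-2.59). Acsl6, another acyl-CoA synthetase, was the gene to rise, from 0.0503 to 0.231 (2.20), and entered through day 8 alone. Among 7 genes of lipoprotein and cholesterol export, the receptor Lrp1 rose from 2.08 to 4.52 and Soat1, which esterifies cholesterol, from 0.380 to 1.04. Npc2, which moves cholesterol out of lysosomes, fell from 9.63 to 3.38, and Apoe was the other gene of this list to fall.

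Glycolysis, amino acid and lysosome genes were mixed. Of 11 glycolysis and glucose transport genes 2 rose and 3 fell, which became 3 and 2 after thinning, against 4 and 1 in wild type. The list's median log2 ratio was -0.60, and 0.22 in wild type. The risers were the transporters Slc16a1 and Slc2a1, the latter from 0.0508 to 0.240 (log2 ratio 2.24). Slc2a1 was under 0.1 at day 2 and entered through day 8 alone. The enzymes Eno1, from 7.85 to 1.97 (-1.99), and Gpi1, from 5.83 to 2.10 (-1.47), were among the fallers. In the list of amino acid response and serine synthesis genes, 3 of 10 rose and 2 fell. Slc7a11, the cystine transporter, rose from 0.144 to 0.927 (2.69), and Slc7a5, a transporter of large neutral amino acids, from 0.167 to 0.421 (1.34). Phgdh, the first enzyme of serine synthesis, fell from 11.1 to 2.33 (-2.26), while in wild type it was at 8.99 and 7.19 (-0.32). Asns, asparagine synthetase, fell from 0.540 to 0.161 (-1.74), against 0.409 and 0.395 in wild type. Of 15 lysosomal genes 3 rose and 6 fell. Tfeb, the transcription factor of lysosome genes, rose from 0.0726 to 0.203 (1.48) and Atp6v1a, a proton pump subunit, from 1.30 to 3.27 (1.34). Of these Tfeb was under 0.1 at day 2 and entered through day 8 alone. Ctsl, the protease cathepsin L, fell from 9.53 to 1.88 (-2.34), against -0.51 in wild type.

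Extracellular matrix genes were split evenly, with 5 of 15 higher, 5 lower and a median log2 ratio of -0.24. Col4a5, a basement membrane collagen, rose from 0.347 to 1.34 (1.94), Fn1, fibronectin, from 0.204 to 0.723 (1.83) and Timp3, an inhibitor of matrix proteases, from 1.52 to 4.79 (1.65). Col4a1, another basement membrane collagen, fell from 1.23 to 0.318 (-1.95), beside Tnc and Bcan. Of 13 ER chaperone genes 3 rose and 0 fell. Hyou1 rose from 0.0731 to 0.267 (1.87) and Pdia4, a disulfide isomerase, from 0.490 to 1.33 (1.44), while Hspa5, the chaperone BiP, was at 2.28 and 1.62. Of these Hyou1 was under 0.1 at day 2 and entered through day 8 alone. All 6 interferon and antigen presentation genes compared were within 2-fold, with B2m, the light chain of MHC class I, at 2.33 on both days and Ifi27 at 1.77 and 1.10. Their median log2 ratio was 0.52, whereas in wild type 3 of 6 rose and 0 fell, with a median of 1.01. A further 13 of the 20 listed, Isg15 and Ifit1 among them, had 0 rows in the matrix. Among 5 Notch pathway genes Notch2, a receptor that holds neural stem cells in quiescence, was the one to rise, from 0.651 to 2.48 (1.93). After thinning to 3000 UMIs its log2 ratio was 1.33. It was 1.34 with the day 8 cells under 3000 UMIs left out and no thinning, and 1.91 with day 2 cells thinned to the day 8 depths. In day 8 cells under 3000 UMIs its level was 4.94, against 1.64 in deeper cells. Of 9 genes for potassium, glutamate and GABA handling 2 rose and 1 fell, with a median log2 ratio of -0.07, and after thinning 0 rose and 1 fell.

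The partners of Kmt2d mostly stayed within 2-fold. Of 17 genes for KMT2 methyltransferases, KDM6 demethylases, their partners and the opposing Polycomb complex, 0 rose and 1 fell. That gene was Ezh2, the Polycomb methyltransferase, which went from 0.434 to 0.190 (log2 ratio -1.19), after 1.59 at day 0. It was under 2-fold when summed UMIs were scaled by total UMIs (-0.95). Kmt2c, the closest relative of Kmt2d, was at 0.761 and 0.841 and Kdm6a, a demethylase of the same complex, at 0.268 and 0.253. The median log2 ratio of the list was 0.22, and -0.02 after thinning, when Ash2l passed 2-fold downwards as well.

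**Figure D4:**
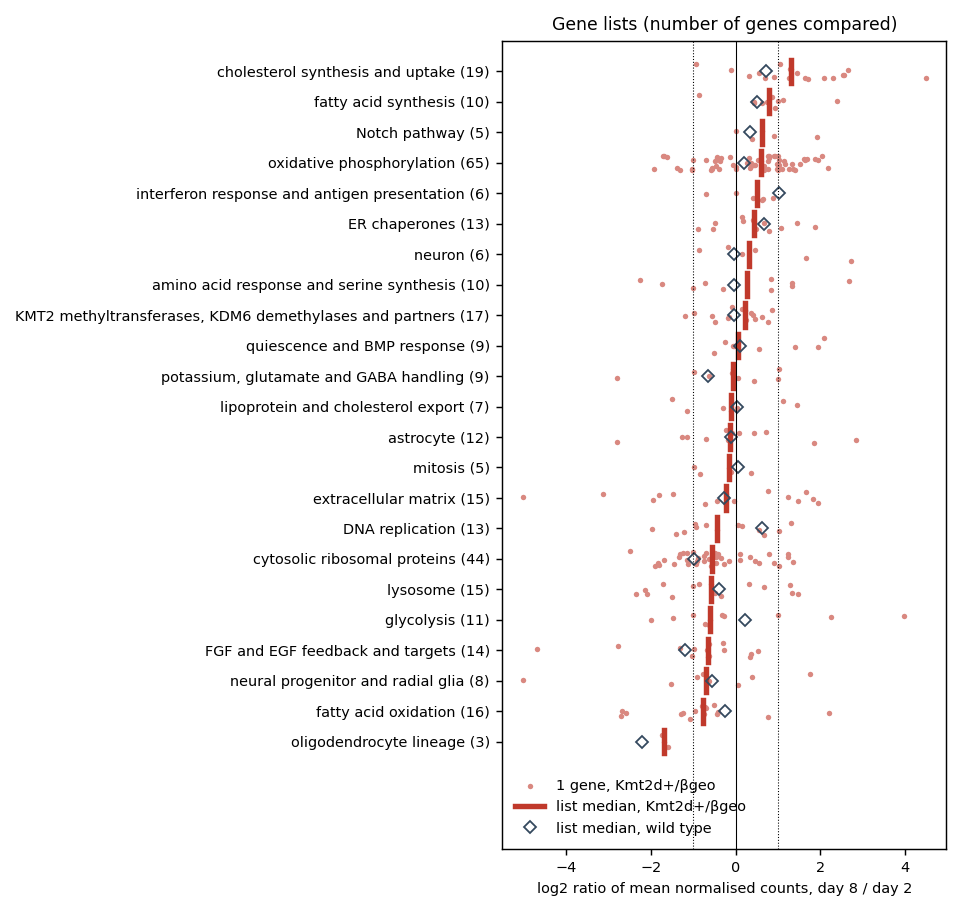
The log2 ratio of each compared gene (points) in 23 gene lists for Kmt2d+/βgeo day 8 over day 2 (x axis), with the list median as a bar and the wild-type list median as a diamond. Dotted lines mark 2-fold, numbers in brackets are genes compared, and cholesterol synthesis and uptake has the highest median (1.30) and the oligodendrocyte lineage the lowest (-1.69).

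Ribosomal protein and oxidative phosphorylation genes are abundant families that each hold short and long members. Ribosomal protein genes, Eef1a1, Tpt1 and Ubb have near-identical copies elsewhere in the genome, so reads that match several copies make their levels uncertain. Of 44 cytosolic ribosomal protein genes 4 rose and 13 fell, with a median log2 ratio of -0.55, and in wild type 0 rose and 19 fell, with a median of -0.98. Rps29, of the small subunit, rose from 5.66 to 13.4 (1.25) and Rpl41 had a log2 ratio of 1.36, whereas Rpl17 fell from 15.4 to 2.74 (-2.49) and Rpl5 from 5.72 to 1.52 (-1.91). Of 65 oxidative phosphorylation genes 18 rose and 9 fell, with a median of 0.59, against 3 and 2 and a median of 0.21 in wild type. After thinning 24 rose and 6 fell. Uqcrq, a small subunit of respiratory complex III, rose from 4.17 to 17.1 (2.03) and Ndufb1-ps, annotated as a small subunit of complex I, from 0.767 to 3.48 (2.18). Uqcrc2, a large core subunit of complex III, fell from 2.98 to 0.779 (-1.93), so complex III held genes that moved both ways.

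Coding length moved with these ratios. Taken from GENCODE M21, the median coding length was 189 bases in the 4 ribosomal protein genes that rose, 405 in the 27 within 2-fold and 582 in the 13 that fell. In oxidative phosphorylation it was 249 bases in the 17 risers with a length, 442.5 in the 38 within 2-fold and 1389 in the 9 fallers. Across genes, which are not independent replicates and share the same 2 libraries, Spearman's rho of the log2 ratio with coding length was -0.62 in the ribosomal list and -0.80 in the oxidative phosphorylation list. The same values in wild type were -0.20 and -0.37. Over all 7570 compared genes with a length rho was -0.0038. The 119 genes of 138 to 300 coding bases had a median log2 ratio of 0.98 and 0.34 in wild type. Of these 119 genes 47.1% rose and 0.84% fell. Thinning left the median of these 119 genes at 1.00. Members of both lists, Rpl41 and Uqcrq among them, are part of the 119. Genes of 303 to 600, 601 to 999, 1002 to 1998 and at least 2001 coding bases had medians of 0.28, -0.01, -0.10 and 0.11. The part of transcript length in the changes of both lists was not tested.

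**Figure D5:**
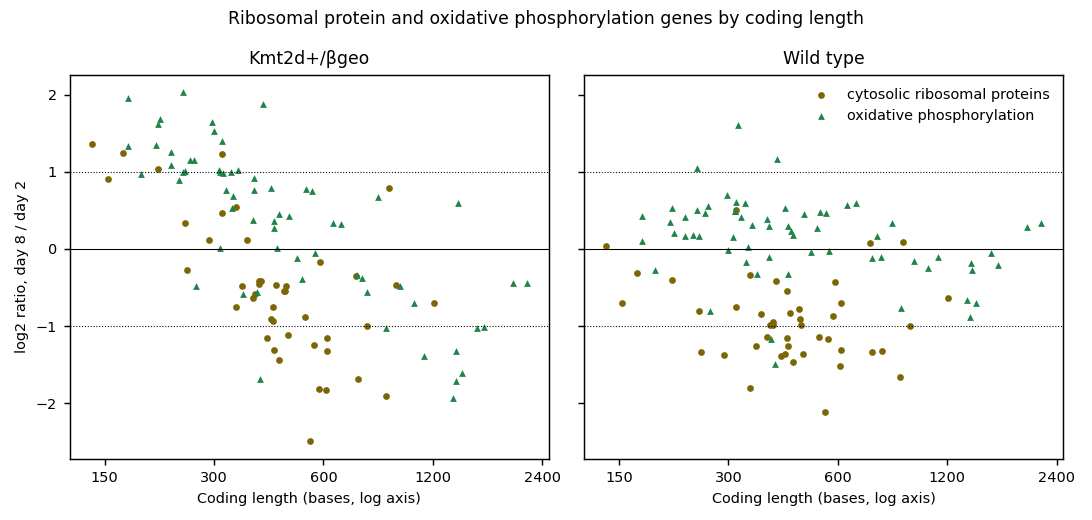
The log2 ratio of day 8 over day 2 (y axis) against coding length in bases (x axis, log scale) for cytosolic ribosomal protein genes (circles) and oxidative phosphorylation genes (triangles), in the Kmt2d+/βgeo libraries (left) and wild type (right). Dotted lines mark 2-fold, and in the Kmt2d+/βgeo libraries the log2 ratio ran lower with length by rank, with a Spearman rho of -0.62 for ribosomal and -0.80 for oxidative phosphorylation genes, and single genes such as Rps2 (906 bases, 0.79) and Cox7a2l (402 bases, -1.69) lie off that order.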

How the data were processed

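Per the study's methods and the submitters' processing notes, the authors counted UMIs with alevin of Salmon 1.3.0 against GRCm38 and took spliced molecules. Those methods, written for the day 0 cells, remove likely doublets and other outlier cells. No source used here says whether day 2 and day 8 cells were filtered alike, and no doublet caller was run. The notes also name Seurat 3.2.2. The deposited matrix holds log2 values of library-size normalised counts with a pseudocount of 1, and total UMIs per cell were read from a deposited table as estimated counts. The log2 values were turned back into normalised counts. Divided by the commonest nonzero value of a cell, 86.8% of values above 0 came within 0.01 of a whole number of UMIs. Summed UMIs added these estimates unrounded, and only the totals were rounded for the Poisson intervals. For thinning each estimated count was rounded.

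Genes with a mean normalised count of at least 0.1 in either library were compared by the log2 ratio of means and counted past a log2 ratio of 1. No test was run, since each group was 1 library. Summed UMIs have exact Poisson intervals and their ratios exact conditional intervals at 95%. Cells were thinned without replacement to 3000 UMIs, which left out 0 day 2 and 765 day 8 cells, or to 2000. Before rounding, 752 day 8 cells were under 3000 UMIs, and these are the cells called shallow. The steps were tested on simulated data with Python 3.11.15, numpy 2.4.6, pandas 2.3.3 and scipy 1.17.1.

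Named genes passed 2-fold also after thinning and were the 10 highest and 10 lowest ratios, the 5 largest rises and falls in mean, and the 2 highest and 2 lowest members of each list past 2-fold, or the 2 most abundant where none passed. Kmt2d, Top2a, Apoe, Olig2, Sox9 and Luzp2 were always named. Further list members were named after their values were seen, and some genes that meet the rule are not reported here. The gene lists, the comparison and the rules were chosen with earlier results of these data known. Lists for immediate early genes of dissociation (1 of 18 in the matrix, Hsph1 at 0.290 and 0.307) and for nuclear-retained RNA (0 of 8) could not be read. Other scalings, depths and filters were tried as alternatives. Day 4 was not used beyond the Luzp2 levels given above.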

Additional observations from a re-analysis of the deposited data

Results flagged for a closer look

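Of the named genes past 2-fold in the Kmt2d+/βgeo libraries, 3 had a log2 ratio of day 8 over day 2 with the opposite sign in wild type and counting intervals that left out 0 in both genotypes. With 1 library per genotype and day the difference was not tested. Apoe had a log2 ratio of -1.15 in Kmt2d+/βgeo and 0.62 in wild type, a difference of -1.77. Slc7a5 had 1.34 and -0.41, a difference of 1.75. Rps29 had 1.25 and -0.31, a difference of 1.56.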

How the results depend on the processing

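Of 82 genes past 2-fold that the naming rule chose, each kept its direction under every alternative in which it was compared. Apart from the always-named genes, the rule had already required 2-fold in the same direction after thinning to 3000 UMIs, so that outcome was built in. Changing the minimum mean left the ratios of these genes unchanged. These counts therefore do not measure how stable the calls over all genes were. Between 80 and 82 passed 2-fold where all 82 were compared, except with the difference of mean log2 values, where 37 did. The pseudocount of 1 keeps genes with levels under 1 on both days from passing there. Padi2, for example, had mean log2 values of 0.0090 at day 2 and 0.316 at day 8 for that difference. The 875 rises and 785 falls became 50 and 123 under that difference, 442 and 441 with a minimum mean of 0.5, and 1020 and 617 when summed UMIs were scaled by total UMIs. Of the 1020 and 617, 863 and 612 were shared with the calls on levels. Thinning to 3000 UMIs, with the minimum of 0.1 set on the thinned levels, gave 817 rises and 837 falls, of which 759 and 723 were shared with those over all cells. Leaving out the day 8 cells under 3000 UMIs without thinning gave 793 and 825. With day 2 thinned to the day 8 depths and every cell kept the counts were 878 and 796. Apoe lost its place past 2-fold after thinning to 3000 UMIs (-0.94), with the day 8 cells under 3000 UMIs left out (-0.94) and when scaled by total UMIs (-0.98), and kept it after thinning to 2000 (-1.08) and with day 2 thinned to the day 8 depths (-1.14). Tipin (0.95 to 0.99) and, scaled by total UMIs, Ezh2 (-0.95) also lost theirs. Centring on the median ratio took 9 of the 130 list members past 2-fold under it, Srebf1 (0.96) and Tipin (0.97) among them. Depth limits low genes most, and ratios on fewer than 100 UMIs carry wide counting intervals. No paired analysis was possible because each genotype and day had 1 library, and for the same reason no library could be left out. Genotype, culture and library cannot be told apart.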

Other observations

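Families of protein synthesis, folding and breakdown genes were read in the Kmt2d+/βgeo libraries beside all genes, of which 11.3% rose and 10.2% fell (8.55% and 6.14% in wild type). These families were chosen after their values were seen and are given as values only. Of 9 subunits of eIF3, which loads the ribosome at the start of translation, 0 rose and 6 fell, 5 of them also after thinning to 3000 UMIs. The eIF3 median log2 ratio was -1.38, and in wild type 4 of 9 fell, with a median of -0.89. Eif3e fell from 8.54 to 1.85 and Eif3h from 9.56 to 2.73. Of 8 subunits of the chaperonin CCT, which folds actin and tubulin, 7 fell, with a median of -1.60. In wild type 3 of these 8 fell, with a median of -0.53. Cct4 fell from 5.18 to 1.05 and Cct5 from 3.95 to 0.702, whereas Cct6a was within 2-fold at 2.05 and 1.65. All 4 elongation factor genes fell, and 2 of them in wild type. Of 15 tRNA synthetase genes 5 fell, and 0 in wild type. Of 30 proteasome genes 9 fell, 5 of them also after thinning to 3000 UMIs, and 0 in wild type. The proteasome median was -0.68 in the Kmt2d+/βgeo libraries and 0.21 in wild type.

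Genes of cilia were also chosen after their values were seen, and their counts stand beside the same shares of all genes. Of 9 cilia and flagella associated protein genes 5 rose and 0 fell, with a median log2 ratio of 1.35 and 1.25 in wild type. Of these 5, Cfap69, Cfap54 and Cfap47 were under 0.1 at day 2 and entered through day 8 alone, and 2 more of the 11 in the matrix were too low to be compared, so the count and median depend in part on the minimum level. Cfap298 rose from 0.355 to 1.16 and Cfap36 from 0.792 to 2.01. Of 4 RFX genes, whose proteins switch on cilia genes, 3 rose, with Rfx3 from 0.387 to 1.53 and Rfx4 from 1.11 to 2.50, and 2 rose in wild type. The third riser, Rfx2, was at 0.0962 and 0.205, under 0.1 at day 2, and entered through day 8 alone. Of 13 intraflagellar transport genes 1 rose, Ift80, from 0.101 to 0.268, with a median of 0.10, whereas in wild type 5 of 13 rose, with a median of 0.73. The 3 radial spoke head genes were within 2-fold, with log2 ratios from -0.97 to -0.65, but 1 fell after thinning, and 1 rose in wild type. The metallothionein genes Mt3 and Mt2 both rose, the latter from 10.4 to 29.5.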
